A study of Mus musculus with 177 samples.

Results

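Glucose uptake, glycolysis and the handling of pyruvate and lactate were followed through 34 genes. They were listed by function, with earlier results of these data known. Of these, 32 had a probe set annotated to them alone and were measured in every tissue, among 19937 genes tested. Gpi1 and Eno1 had no such probe set and were not analysed here. The measured genes are 3 glucose transporters, 3 hexokinases, 9 enzymes from aldolase to pyruvate kinase, 2 lactate dehydrogenases, 3 monocarboxylate transporters, 4 pyruvate dehydrogenase kinases, 5 subunits of the pyruvate dehydrogenase complex, pyruvate carboxylase and 2 malic enzymes.

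The arrays come from C57BL/6 mice at postnatal day 7, 62 of them in the study's design, whose lung, brain and eye were profiled on Affymetrix Mouse Gene 1.0 ST arrays. The hypoxia groups breathed gas with an inspired oxygen fraction of 0.08 for 120 min and then 21, 40, 60 or 100% oxygen for 30 min; they are called H21, H40, H60 and H100. The normoxia groups breathed air (a fraction of 0.21) for the same 120 min and then 21 or 100% oxygen for 30 min; they are called N21 and N100. All 6 groups then spent 150 min in air before the tissues were taken, so the values show what was present after this recovery, not the state during hypoxia. RNA of mixed cells was measured, so fewer cells of a type and less RNA per cell cannot be told apart.

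The deposited values are on the log2 scale, and 60 of 61 lung, 58 of 59 brain and 56 of 57 eye arrays were used, 9 to 12 per group. The other 3 arrays, all labelled H40, had the profile of another tissue: lung replicate 10 resembled brain, brain replicate 7 resembled eye and eye replicate 9 resembled lung. Defining markers fitted the labels of the arrays used. Sftpc, a surfactant gene of type 2 alveolar cells, averaged 14.2 in lung, 5.08 in brain and 5.15 in eye. The synaptic gene Syt1 averaged 12.1 in brain, 11.1 in eye and 5.41 in lung, so it does not separate brain from eye. The lens gene Cryaa averaged 14.2 in eye, 5.5 in brain and 5.89 in lung. The tissues appear to have been normalized separately, so levels of a gene in different tissues are set side by side here without a test.

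Cells without enough oxygen cannot burn pyruvate in mitochondria and gain ATP by running glucose to lactate. Hypoxia-inducible factors, which are stabilised when oxygen falls, are known to switch on glucose transporters, most glycolytic enzymes, Ldha, the lactate exporter Slc16a3 and Pdk1, whose product shuts the pyruvate dehydrogenase complex. In newborns, glucose and lactate are both fuels of the brain, and the retina makes much lactate even in air.

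When all 4 hypoxia groups were set against both normoxia groups, 1 of the 32 genes passed the test in lung, 0 in brain and 1 in eye. Slc2a3, the neuronal and leukocyte glucose transporter GLUT3, rose in lung by 0.24 ± 0.07 (log2, SE of the limma fit, adjusted p = 0.044). Me2, the mitochondrial malic enzyme that makes pyruvate from malate, fell by 0.17 on the log2 scale in eye (SE 0.04, adjusted p = 0.042). In brain the 3 largest changes were those of Slc16a3 (0.26 ± 0.06, adjusted p = 0.078), Hk2 (0.24 ± 0.07, adjusted p = 0.52) and Pdk1 (0.18 ± 0.04, adjusted p = 0.059), none of which passed. A gene was called when its Benjamini-Hochberg adjusted p over all 19937 genes was under 0.05. Against that background, 1.05% of all genes were called higher and 0.607% lower in lung, 0.0803% higher and 0.00502% lower in brain, and 0.0652% higher and 0.0201% lower in eye. This fit held no term for the 3 runs in which sample records are listed (record runs). Between the first and later runs 11256, 8933 and 7714 of all genes differed in lung, brain and eye (limma, adjusted p under 0.05). With a block for the runs Slc2a3 (adjusted p = 0.022) and Pkm (0.0096) were called in lung, Slc16a3 (0.0022) in brain and Me2 (0.025) in eye. Of all genes, that fit called 504, 24 and 32.

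The shares of members with an unadjusted p under 0.05 were 8 of 32 in lung, against 9.0% of all genes, 3 of 32 in brain, against 3.18%, and 3 of 32 in eye, against 5.02%. In lung 7 of the 8 had positive changes. For lung, brain and eye in turn, the median change of the members was 0.03, -0.01 and 0.00, and that of all genes 0.01, -0.00 and 0.00. Positive values were found for 21, 16 and 16 of the 32 members, against 55.8%, 47.8% and 51.8% of all genes.

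**Figure D1:**
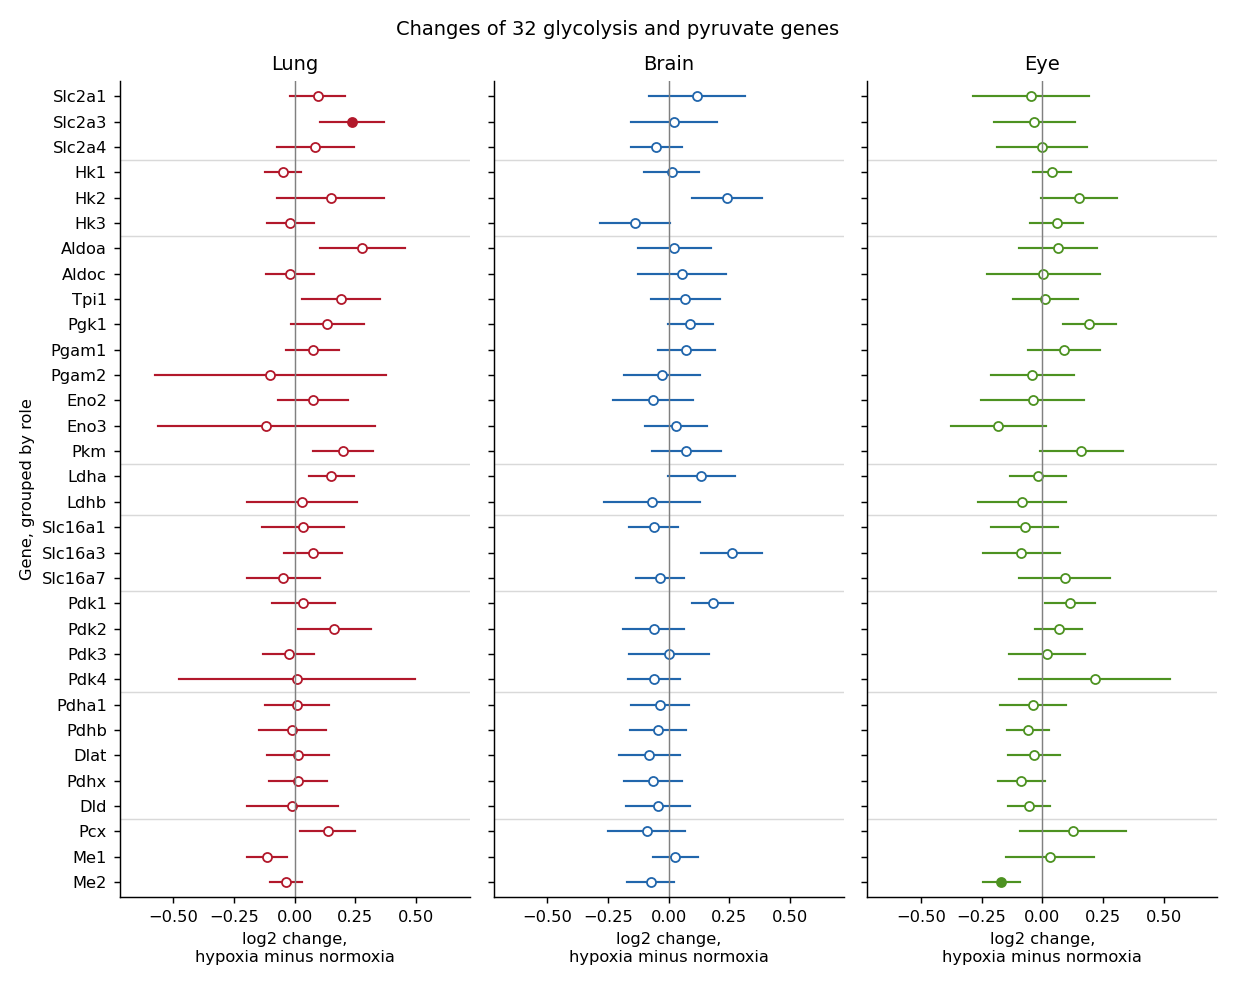
Log2 change (horizontal axis) of each of the 32 genes in the hypoxia groups minus the normoxia groups in lung, brain and eye; points are limma estimates, bars their 95% confidence intervals, filled points have an adjusted p under 0.05, and grey lines separate the roles. Filled points stand for Slc2a3 in lung at 0.24 and Me2 in eye at -0.17, and the widest intervals belong to Pgam2, Eno3 and Pdk4 in lung.

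The glucose transporters were Slc2a1 (GLUT1, the carrier of most cells and of the blood-brain barrier), Slc2a3 and Slc2a4 (GLUT4, the insulin-responsive carrier of muscle and fat). Slc2a3 lay between 6.91 and 8.16 with a median of 7.53 in the 41 lung arrays of the hypoxia groups, and between 6.97 and 7.76 with a median of 7.30 in the 19 arrays of the normoxia groups. The ranges overlapped widely, but 34 of the 41 hypoxia arrays stood above the normoxia mean and 7 above every normoxia array. By group the Slc2a3 mean was 7.49 ± 0.27 in H21 (SD, n = 9), 7.53 ± 0.18 in H40 (n = 9), 7.56 ± 0.27 in H60 (n = 12) and 7.55 ± 0.28 in H100 (n = 11), against 7.28 ± 0.23 in N21 (n = 9) and 7.32 ± 0.19 in N100 (n = 10). All 4 hypoxia means were above both normoxia means, and the oxygen given afterwards gave a difference of 0.06 ± 0.11 between H100 and H21 (adjusted p = 1).

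The call for Slc2a3 lay close to the threshold. With each of the 60 lung arrays left out in turn its change stayed between 0.22 and 0.26, but it was lost in 34 of the 60 fits, with an adjusted p of up to 0.098 without N21 replicate 3. It was also lost with sex read from the arrays as a covariate (adjusted p = 0.054), after renewed quantile normalization (0.058), in the first record run only (0.35), with all arrays (0.43) and in later record runs only (0.79), with changes of 0.23 to 0.31. It held with array quality weights (adjusted p = 0.0027), a record-run block (0.022), the dimmest 40% of genes left out (0.027) and equal array weights (0.03). A replicate block (0.045) and every probe set tested (0.046) also kept it. All 8 neutrophil markers had positive changes in lung, with a median of 0.43, and 1 was called, the neutrophil collagenase Mmp8 (0.91 ± 0.15, adjusted p = 0.00013). Their mean level per array ran from 5.99 to 7.88 with a median of 6.49 in the hypoxia groups and from 5.72 to 7.28 with a median of 6.08 in the normoxia groups. With this mean as a covariate the change of Slc2a3 was 0.15 ± 0.07 (adjusted p = 0.53), and 0 members were called by limma (5 at an unadjusted p under 0.05). In that fit 7.79% of all genes had an unadjusted p under 0.05, and 158 genes were called in place of 331. Brown fat markers, whose source in the lung arrays was not tested, had a median change of -0.41 with 0 called (1 of 6 positive). Their mean ran from 5.03 to 8.46 with a median of 5.41 in the hypoxia groups and from 5.17 to 7.69 with a median of 6.30 in the normoxia groups. With the means of brown fat and skeletal muscle markers as covariates Slc2a3 was at 0.23 ± 0.07 (adjusted p = 0.082). Whether neutrophils or other cells account for the Slc2a3 change was not tested.

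Across the 60 lung arrays, as deviations from group means, Slc2a3 correlated with the neutrophil mean (r = 0.38, permutation p = 0.0029, adjusted p = 0.0029; rho = 0.36, permutation p = 0.0055, adjusted p = 0.0055). Without the 2 arrays farthest from the median of the neutrophil mean r was 0.38. Within the 3 runs in which sample records are listed, which the labels do not call batches, it was 0.45 (38 arrays), -0.09 (7 arrays) and 0.77 (15 arrays), so the relation was not seen in the smallest run. Slc2a3 also correlated with the mean of 4 endothelial markers (r = 0.55, permutation p = 1e-05, the smallest that 100000 permutations can give, adjusted p = 1.1e-05; rho = 0.51, permutation p = 5e-05, adjusted p = 5.6e-05; r = 0.49 without the 2 farthest arrays; 0.50, 0.72 and 0.61 in the 3 runs). The endothelial list itself had a median change of 0.03, and its mean was not taken as a covariate.

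For lung, brain and eye in turn, the Slc2a1 values were 0.10 ± 0.06, 0.12 ± 0.10 and -0.05 ± 0.12, and those of Slc2a4 were 0.09 ± 0.08, -0.05 ± 0.05 and -0.00 ± 0.09. Neither passed the test in any tissue. The brain and eye values of Slc2a3 were 0.02 ± 0.09 and -0.03 ± 0.08. In a single fit of all tissues its change in lung exceeded that in eye by 0.27 ± 0.11 and that in brain by 0.21 ± 0.11, with adjusted p values of 0.65 and 0.98, so the difference between tissues was not shown. Under normoxia Slc2a3 averaged 10.6 ± 0.32 in brain (SD, n = 18), 8.49 ± 0.30 in eye (n = 18) and 7.30 ± 0.20 in lung (n = 19), while Slc2a1 averaged 11.8 ± 0.41 in eye, 9.57 ± 0.37 in brain and 7.98 ± 0.24 in lung.

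Hexokinases trap glucose in the cell as glucose 6-phosphate. Hk2, the inducible form of muscle and other tissues, lay between 5.79 and 7.11 with a median of 6.87 in the 40 brain arrays of the hypoxia groups, and between 6.08 and 6.93 with a median of 6.57 in the 18 normoxia arrays. Of the 40 hypoxia arrays 34 were above the normoxia mean, 13 were above every normoxia array and 2 below every one. The Hk2 group means were 6.84 ± 0.31 in H21, 6.72 ± 0.40 in H40, 6.80 ± 0.14 in H60 and 6.87 ± 0.20 in H100, against 6.55 ± 0.24 in N21 and 6.58 ± 0.21 in N100 (SD). The brain change of 0.24 did not pass (adjusted p = 0.52), and was 0.15 ± 0.11 in lung and 0.15 ± 0.08 in eye. With array quality weights, which count noisy arrays less, it was 0.27 ± 0.05 in brain (adjusted p = 0.0015). None of the 10 other settings called it, with adjusted p values from 0.099 (record-run block) to 1, and in later record runs only it was 0.11 ± 0.19.

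Hk3, the form of white blood cells, gave -0.02 ± 0.05 in lung, -0.14 ± 0.07 in brain and 0.06 ± 0.05 in eye. Hk1, the housekeeping form, gave -0.05 ± 0.04, 0.01 ± 0.06 and 0.04 ± 0.04. The Hk1 probe set with the highest mean, which the rule takes, is tied to Hk1 through an accession that 17 probe sets list and of which 15 are also annotated to the ribosomal gene Rpl17, so its value is uncertain. The other Hk1 probe set, which lists RefSeq transcripts, gave 0.06 ± 0.04 in lung, 0.04 ± 0.05 in brain and -0.09 ± 0.08 in eye, turning the sign in lung and eye, and none of these passed.

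From aldolase to pyruvate kinase, positive values were found for 6 of 9 enzymes (lung), 7 of 9 (brain) and 6 of 9 (eye), and limma called 0 of them (at an unadjusted p under 0.05 there were 3 in lung, 0 in brain, 1 in eye). Of all genes 55.8%, 47.8% and 51.8% had positive values in these tissues. Aldoa, the aldolase of muscle and most other cells, had the largest member change in lung (0.28 ± 0.09, adjusted p = 0.095). It lay between 10.46 and 11.97 with a median of 11.06 in 41 hypoxia arrays and between 9.87 and 11.56 with a median of 10.75 in 19 normoxia arrays. Of the 41, 34 were above the normoxia mean but only 3 above every normoxia array. The Aldoa group means were 11.08 ± 0.29 in H21, 11.31 ± 0.44 in H40, 10.91 ± 0.20 in H60 and 11.06 ± 0.29 in H100, against 10.82 ± 0.24 in N21 and 10.80 ± 0.43 in N100 (SD). Pkm, pyruvate kinase of muscle and most tissues, lay between 9.77 and 10.90 with a median of 10.24 in the hypoxia lungs and between 9.64 and 10.30 with a median of 10.10 in the normoxia lungs. The Pkm group means were 10.24 ± 0.28 in H21, 10.41 ± 0.26 in H40, 10.20 ± 0.19 in H60 and 10.25 ± 0.20 in H100, against 10.08 ± 0.20 in N21 and 10.07 ± 0.19 in N100 (SD). Its change was 0.20 ± 0.06 (adjusted p = 0.083), and 17 of 41 hypoxia arrays exceeded every normoxia array. The probe set used for Pkm in lung lists no RefSeq transcript, and the other, which does, gave 0.21 ± 0.06.

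These lung values depended on the fit. Array quality weights called Aldoa (0.27 ± 0.08, adjusted p = 0.032) and Pkm (0.18 ± 0.05, adjusted p = 0.033), and a block for the record runs called Pkm (0.21 ± 0.05, adjusted p = 0.0096), as did a block for the replicate numbers (0.20 ± 0.06, adjusted p = 0.047). In later record runs only, Aldoa was at 0.12 ± 0.13 and Pkm at 0.12 ± 0.09, both with an adjusted p of 1. Without single arrays, Aldoa was called only without N100 replicate 9 (adjusted p = 0.027) and Pkm only without H21 replicate 7 (adjusted p = 0.04). With the neutrophil mean as a covariate Aldoa was at 0.14 ± 0.09 (adjusted p = 0.78) and Pkm at 0.18 ± 0.07 (adjusted p = 0.33). With the means of the skeletal muscle and brown fat markers as covariates instead, Aldoa was at 0.31 ± 0.07 (adjusted p = 0.013) and Pgk1 at 0.19 ± 0.05 (adjusted p = 0.044), the 2 members called in that fit. Of all genes that fit called 257, and 7.98% had an unadjusted limma p under 0.05.

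Among the other enzymes, Tpi1 (triosephosphate isomerase) had values of 0.19 ± 0.08 for lung, 0.07 ± 0.07 for brain and 0.01 ± 0.07 for eye. Pgk1 (phosphoglycerate kinase, the first ATP-yielding step) had 0.13 ± 0.07 for lung, 0.09 ± 0.05 for brain and 0.19 ± 0.05 for eye (adjusted p = 0.25). In the eye Pgk1 lay between 11.59 and 12.55 with a median of 12.16 in 38 hypoxia arrays and between 11.77 and 12.34 with a median of 11.97 in 18 normoxia arrays. Of the 38, 33 were above the normoxia mean and 6 above every normoxia array. The Pgk1 group means were 12.15 ± 0.22 in H21, 12.17 ± 0.25 in H40, 12.19 ± 0.17 in H60 and 12.17 ± 0.13 in H100, against 12.01 ± 0.19 in N21 and 11.95 ± 0.15 in N100 (SD), and array quality weights called it (0.19 ± 0.05, adjusted p = 0.049). Pgam1, the widely expressed phosphoglycerate mutase, had 0.07 ± 0.05, 0.07 ± 0.06 and 0.09 ± 0.07 for lung, brain and eye. Values for Aldoc, the brain aldolase, and Eno2, the neuronal enolase, lay between -0.06 and 0.07 in the 3 tissues, with no call.

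Pgam2 and Eno3, the muscle forms of phosphoglycerate mutase and enolase, and Pdk4 were the members that varied most between lung arrays of the same group, with within-group SDs of 0.89, 0.84 and 0.91, against a median of 0.22 over all genes. Their hypoxia changes in lung were -0.10 ± 0.24, -0.12 ± 0.22 and 0.01 ± 0.24, with standard errors near the size of the change seen for Slc2a3. Brown fat markers fell into separate groups of arrays, so correlations were taken apart in the 37 arrays below and the 23 above their group's brown fat mean. Across these, r with the brown fat mean was 0.48 and 0.66 for Eno3 (permutation p = 0.0023 and 0.00064), 0.47 and 0.71 for Pgam2 (0.0027 and 0.00013) and 0.41 and 0.78 for Pdk4 (0.011 and 2e-05), with adjusted p values over 12 relations of 0.015 or less. The matching rho values were 0.53 and 0.68 for Eno3, 0.56 and 0.74 for Pgam2, and 0.45 and 0.80 for Pdk4, with adjusted p values of 0.0079 or less. Without the 2 farthest arrays of each side r was 0.46 and 0.58, 0.45 and 0.63, and 0.29 and 0.72. For skeletal muscle markers the 41 lower and 19 higher arrays gave 0.53 and 0.64 for Eno3 (adjusted permutation p = 0.001 and 0.006), 0.39 and 0.17 for Pgam2 (0.015 and 0.49) and 0.16 and 0.40 for Pdk4 (0.33 and 0.11).

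**Figure D2:**
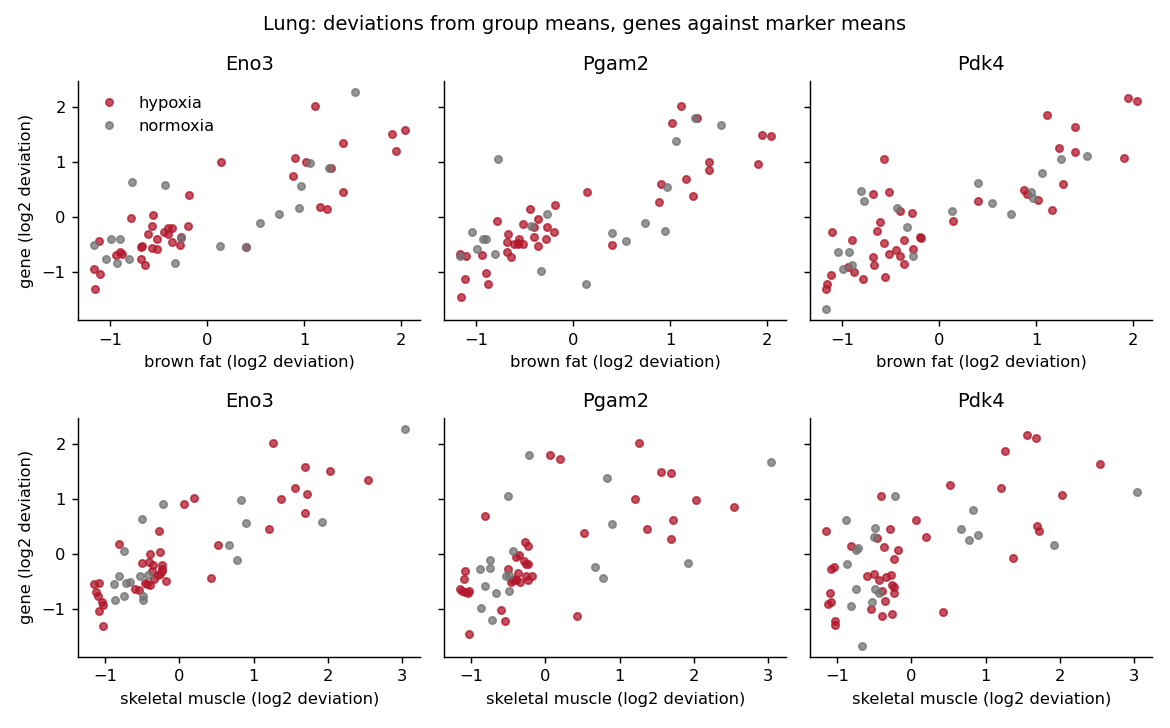
Each point is a lung array; the horizontal axis is the mean of the brown fat markers (top) or skeletal muscle markers (bottom) and the vertical axis the gene's value, both as log2 deviations from the mean of the array's own group, in red for the hypoxia and grey for the normoxia groups. Eno3, Pgam2 and Pdk4 are higher where brown fat markers are higher.

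In the eye, whose arrays also held muscle RNA, all 10 skeletal muscle markers had negative changes with a median of -0.26, and 0 were called. Their mean ran from 9.23 to 10.9 with a median of 10.4 in the hypoxia groups and from 9.96 to 10.9 with a median of 10.5 in the normoxia groups. Eno3 lay between 9.41 and 11.10 with a median of 10.61 in 38 hypoxia arrays and between 9.99 and 11.12 with a median of 10.68 in 18 normoxia arrays, and the groups overlapped with 4 hypoxia arrays below every normoxia array. The Eno3 group means were 10.40 ± 0.36 in H21, 10.37 ± 0.47 in H40, 10.55 ± 0.32 in H60 and 10.60 ± 0.36 in H100, against 10.60 ± 0.30 in N21 and 10.73 ± 0.26 in N100 (SD), and the change was -0.18 ± 0.10 (adjusted p = 1). It correlated with the muscle mean across the 56 arrays (r = 0.85, permutation p = 1e-05, adjusted p = 1.1e-05; rho = 0.83, permutation p = 1e-05, adjusted p = 1.2e-05; r = 0.80 without the 2 farthest arrays; 0.94, 0.99 and 0.72 in the 3 runs). With the muscle mean as a covariate the Eno3 change turned to 0.04 ± 0.06. The eye value of Pgam2 was -0.04 ± 0.08.

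Ldha and Ldhb encode the lactate dehydrogenase subunits that favour lactate formation and lactate use. Ldha lay between 11.03 and 11.92 with a median of 11.35 in 41 hypoxia lungs and between 10.88 and 11.51 with a median of 11.16 in 19 normoxia lungs, a change of 0.15 ± 0.05 (adjusted p = 0.085). It was 0.14 ± 0.07 in brain and -0.02 ± 0.06 in eye. Ldhb gave 0.03 ± 0.11, -0.07 ± 0.10 and -0.08 ± 0.09.

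Monocarboxylate transporters carry lactate, pyruvate and ketone bodies across membranes. Slc16a3 (MCT4), the lactate exporter of glycolytic cells, had the largest member change in brain. It lay between 6.36 and 7.30 with a median of 6.97 in 40 hypoxia arrays and between 6.09 and 6.99 with a median of 6.71 in 18 normoxia arrays. Of the 40, 36 were above the normoxia mean and 18 above every normoxia array. The group means were 6.98 ± 0.25 in H21 (n = 9), 6.88 ± 0.24 in H40 (n = 9), 6.93 ± 0.21 in H60 (n = 11) and 6.93 ± 0.21 in H100 (n = 11), against 6.62 ± 0.28 in N21 (n = 9) and 6.72 ± 0.11 in N100 (n = 9). The change of 0.26 missed the threshold as fitted (adjusted p = 0.078), and passed it with a block for the record runs (0.30 ± 0.05, adjusted p = 0.0022), with array quality weights (0.28 ± 0.05, adjusted p = 0.00099), with a replicate block (0.29 ± 0.06, adjusted p = 0.021) and after renewed quantile normalization (0.27 ± 0.06, adjusted p = 0.019). It was not called with the dimmest 40% of genes left out (adjusted p = 0.051), equal array weights (0.06) or every probe set tested (0.084). Sex read from the arrays as a covariate (0.085), the first record run only (0.21) and all arrays (0.25) did not call it either. In later record runs only the change was 0.19 ± 0.14, without a call. Slc16a3 was called in 4 of 58 fits that each left out an array, with the lowest adjusted p of 0.024 without N21 replicate 2.

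The other tissues gave smaller or negative values of Slc16a3. Its change was 0.08 ± 0.06 in lung and -0.09 ± 0.08 in eye, and brain exceeded eye by 0.35 ± 0.10, which did not pass over all genes (adjusted p = 0.64). In the eye the H21 group was the lowest, with a mean of 8.63 ± 0.32 (n = 9), against 9.05 ± 0.26 in H40 (n = 9), 9.01 ± 0.15 in H60 (n = 9), 9.06 ± 0.28 in H100 (n = 11), 8.98 ± 0.27 in N21 (n = 9) and 9.07 ± 0.37 in N100 (n = 9). The H100 minus H21 difference there was 0.43 ± 0.12 and the slope from 21 to 100% oxygen 0.34 ± 0.12, and neither passed (adjusted p = 0.97 and 0.83). Slc16a1 (MCT1) and Slc16a7 (MCT2, the neuronal importer) had changes between -0.07 and 0.09 in the 3 tissues, with 0 calls.

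Pyruvate dehydrogenase kinases switch off the pyruvate dehydrogenase complex and so keep pyruvate out of the citrate cycle. Pdk1 lay between 8.21 and 8.94 with a median of 8.51 in 40 hypoxia brains and between 8.05 and 8.65 with a median of 8.34 in 18 normoxia brains. It was above the normoxia mean in 38 of the 40, although only 3 exceeded every normoxia array. The group means were 8.54 ± 0.12 in H21 (n = 9), 8.47 ± 0.11 in H40 (n = 9), 8.48 ± 0.19 in H60 (n = 11) and 8.50 ± 0.11 in H100 (n = 11), against 8.39 ± 0.16 in N21 (n = 9) and 8.23 ± 0.09 in N100 (n = 9). N100 lay 0.16 below N21 (-0.16 ± 0.07, adjusted p = 0.95), so the contrast was 0.26 ± 0.07 for H100 against N100 (adjusted p = 0.46) and 0.14 ± 0.07 for H21 against N21 (adjusted p = 1). Over all groups the change of 0.18 had an adjusted p of 0.059, which was 0.04 with array quality weights, 0.041 after renewed quantile normalization and 0.042 with the dimmest 40% of genes left out. It was not called with a record-run block (adjusted p = 0.051), equal array weights (0.06), sex read from the arrays as a covariate (0.062), every probe set tested (0.063), a replicate block (0.076) or all arrays (0.08). In the first record run only the change was 0.15 and in later runs only 0.23, both with an adjusted p of 1. Pdk1 was called in 7 of 58 fits that each left out an array, with the lowest adjusted p of 0.016 without N21 replicate 2.

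The lung and eye values of Pdk1 were 0.04 ± 0.07 and 0.12 ± 0.05 (adjusted p = 0.99 and 0.92). For lung, brain and eye, Pdk2, the widely expressed kinase, had 0.16 ± 0.07, -0.06 ± 0.06 and 0.07 ± 0.05, and Pdk3 had -0.02 ± 0.05, 0.00 ± 0.08 and 0.02 ± 0.08. Pdk4, the kinase induced by fasting in muscle and heart, had a brain value of -0.06 ± 0.05. In eye Pdk4 lay between 7.24 and 9.54 with a median of 8.63 in 38 hypoxia arrays and between 7.77 and 9.04 with a median of 8.39 in 18 normoxia arrays, with 11 hypoxia arrays above and 4 below every normoxia array. The Pdk4 group means were 8.52 ± 0.61 in H21, 8.47 ± 0.69 in H40, 8.60 ± 0.73 in H60 and 8.83 ± 0.53 in H100, against 8.40 ± 0.35 in N21 and 8.38 ± 0.41 in N100 (SD), and the change was 0.21 ± 0.15 (adjusted p = 1). Taking the muscle mean as a covariate gave 0.50 ± 0.12 (adjusted p = 0.077), a change of more than 1.5 times without a call.

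**Figure D3:**
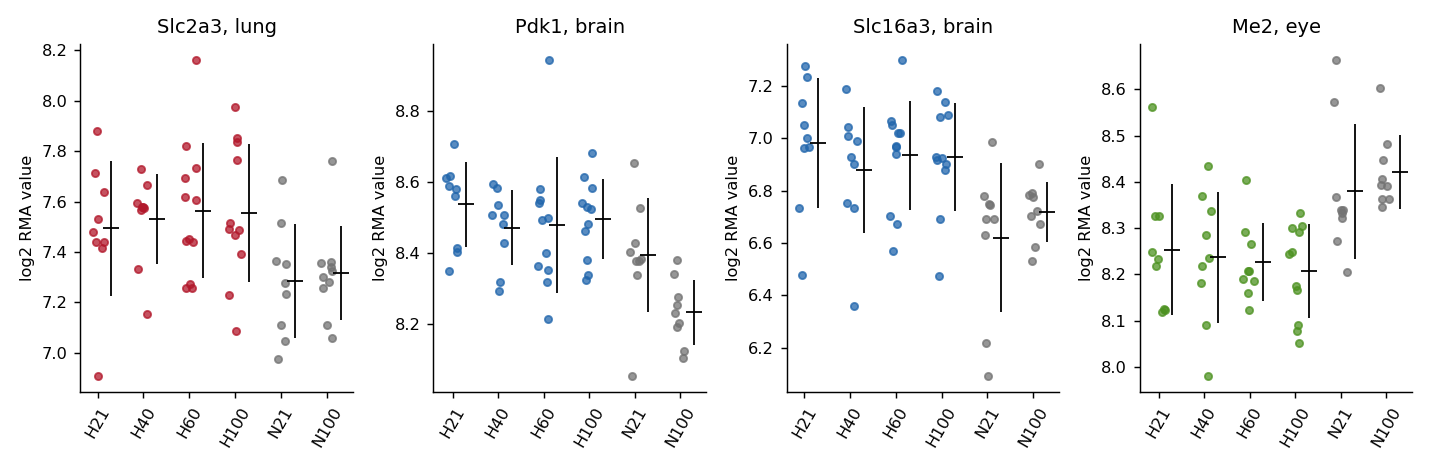
Log2 RMA value (vertical axis) of Slc2a3 in lung, Pdk1 and Slc16a3 in brain and Me2 in eye, by group; each point is an array, coloured for hypoxia and grey for normoxia, and black marks give the mean and SD. All 4 hypoxia means lie above both normoxia means for Slc2a3, Pdk1 and Slc16a3 and below them for Me2, with overlapping arrays in each panel.

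The promoter windows of the 3 genes with the largest brain changes are shown because they can be read for the ACGTG or GCGTG core that hypoxia-inducible factors are known to bind. Each window runs from 250 bases before to 50 bases after the start of a RefSeq transcript (build GRCm38.p6), and capitals mark the core on either strand (CACGT or CACGC where it lies on the other strand). The windows are chr2:71872974-71873273 on the plus strand for Pdk1, chr11:120948817-120949116 on the plus strand for Slc16a3 and chr6:82774405-82774704 on the minus strand for Hk2.
Pdk1: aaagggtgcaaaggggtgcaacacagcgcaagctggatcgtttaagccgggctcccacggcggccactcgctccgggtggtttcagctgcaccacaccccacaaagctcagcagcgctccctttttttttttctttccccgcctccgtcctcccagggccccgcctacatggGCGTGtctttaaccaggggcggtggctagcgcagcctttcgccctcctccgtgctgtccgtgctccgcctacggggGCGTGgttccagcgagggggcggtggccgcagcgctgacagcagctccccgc
Slc16a3: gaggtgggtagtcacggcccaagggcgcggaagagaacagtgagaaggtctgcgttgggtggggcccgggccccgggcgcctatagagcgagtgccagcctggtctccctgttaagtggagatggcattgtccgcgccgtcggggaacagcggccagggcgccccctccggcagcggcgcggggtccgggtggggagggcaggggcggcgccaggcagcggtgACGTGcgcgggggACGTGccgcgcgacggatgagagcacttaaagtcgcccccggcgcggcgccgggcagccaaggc
Hk2: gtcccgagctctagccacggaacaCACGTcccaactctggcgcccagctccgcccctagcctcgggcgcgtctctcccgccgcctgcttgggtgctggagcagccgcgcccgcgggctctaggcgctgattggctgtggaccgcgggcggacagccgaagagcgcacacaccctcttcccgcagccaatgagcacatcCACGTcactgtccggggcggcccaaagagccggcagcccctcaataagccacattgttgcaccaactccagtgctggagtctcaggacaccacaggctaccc

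Each of these windows held 2 matches, and another Pdk1 window with 0 matches is not shown. Of the 32 genes 28 had an entry in the RefSeq promoter table, and 23 of them (82.1%) had a match in at least 1 window, against 46.7% of 27025 genes in the whole table. By window the shares were 26 of 38 (68.4%) and 43.8% of 32851. A match describes these letters only, and Slc2a3, Slc2a4, Slc16a7 and Me2 had no entry.

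The pyruvate dehydrogenase complex turns pyruvate into acetyl-CoA. Its 5 genes Pdha1, Pdhb, Dlat, Pdhx and Dld had small values, which ran from -0.01 to 0.01 in lung, from -0.08 to -0.04 in brain and from -0.09 to -0.03 in eye. All 5 values were negative in brain and in eye, where 47.8% and 51.8% of all genes were positive, and 0 were called in any tissue. The largest in size were Dlat in brain (-0.08 ± 0.06) and Pdhx in eye (-0.09 ± 0.05).

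Pyruvate carboxylase and the malic enzymes join pyruvate to oxaloacetate and malate. Me2 lay between 7.98 and 8.56 with a median of 8.23 in 38 hypoxia eyes and between 8.21 and 8.66 with a median of 8.37 in 18 normoxia eyes. It was below the normoxia mean in 35 of the 38 and below every normoxia array in 15. The group means were 8.25 ± 0.14 in H21 (n = 9), 8.24 ± 0.14 in H40 (n = 9), 8.23 ± 0.08 in H60 (n = 9) and 8.21 ± 0.10 in H100 (n = 11), against 8.38 ± 0.15 in N21 (n = 9) and 8.42 ± 0.08 in N100 (n = 9).

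The Me2 call also lay close to the threshold. Left-out arrays kept its change between -0.18 and -0.15, and it was lost in 34 of 56 fits, with an adjusted p of up to 0.13 without N100 replicate 6. With the muscle mean as a covariate it held (-0.19 ± 0.04, adjusted p = 0.024). It also held with array quality weights (adjusted p = 0.0054), the dimmest 40% of genes left out (0.024), a record-run block (0.025) and equal array weights (0.025). Renewed quantile normalization (0.041), every probe set tested (0.046) and sex read from the arrays as a covariate (0.047) kept it too. It was lost with a replicate block (-0.15, adjusted p = 0.075), with all arrays (-0.15, adjusted p = 0.35), in the first record run only (-0.17, adjusted p = 0.40) and in later runs only (-0.19, adjusted p = 1). The lung and brain values of Me2 were -0.04 ± 0.03 and -0.07 ± 0.05, and the lung minus eye difference was 0.13 ± 0.05 (adjusted p = 0.58). Me1, the cytosolic NADPH-making form, had -0.11 ± 0.04 in lung (adjusted p = 0.22), 0.03 ± 0.05 in brain and 0.03 ± 0.09 in eye. Pcx gave 0.14 ± 0.06, -0.09 ± 0.08 and 0.13 ± 0.11.

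Set against each other, the tissues differed in 0.451% of all genes (lung minus brain), 0.396% (lung minus eye) and 0.01% (brain minus eye), and in 0 of the 32 members by limma. Unadjusted p values under 0.05 were found for 2, 3 and 2 members.

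The oxygen given in the 30 min after hypoxia was examined in single groups, where 0 members passed in any of the 9 other comparisons of a tissue. The share of all genes called was 0.0502% for H21 minus N21, 0.00502% for H40 minus N21, 0.0201% for H100 minus N21 and 0.105% for H100 minus N100 in lung, 0.01% for H100 minus N100 in brain and 0.00502% for H21 minus N21 in eye. It was 0.0% in all the remaining ones: H60 minus N21, N100 minus N21, H100 minus H21, the slope over oxygen within the hypoxia groups and the interaction of hypoxia with 100% oxygen in every tissue, the differences of H21, H40 and H100 from N21 in brain, those of H40 and H100 from N21 in eye, and H100 minus N100 in eye. By unadjusted p under 0.05, between 0 and 5 members stood out in each of these limma comparisons, except for H40 minus N21 in lung. The share of all genes at that unadjusted p ran from 1.33% to 8.7% over the same comparisons.

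In lung H40 minus N21, 13 of the 32 members had an unadjusted p under 0.05, all 13 with positive changes, against 4.67% of all genes. The median member change was 0.23 (all genes 0.02), and 0 passed after adjustment. The largest of the 13 were Aldoa (0.49 ± 0.15, adjusted p = 0.46) and Hk2 (0.49 ± 0.19, adjusted p = 0.90), followed by Tpi1 (0.34 ± 0.14), Pcx (0.33 ± 0.10), Pkm (0.33 ± 0.10) and Pdk2 (0.31 ± 0.13). Slc16a1, Slc2a4, Ldha, Pgk1, Slc2a3, Slc2a1 and Dlat made up the rest, between 0.22 and 0.29. In the other hypoxia groups of the lung the member medians against N21 were 0.04 in H21, 0.00 in H60 and 0.03 in H100, all of which share the N21 arrays.

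**Figure D4:**
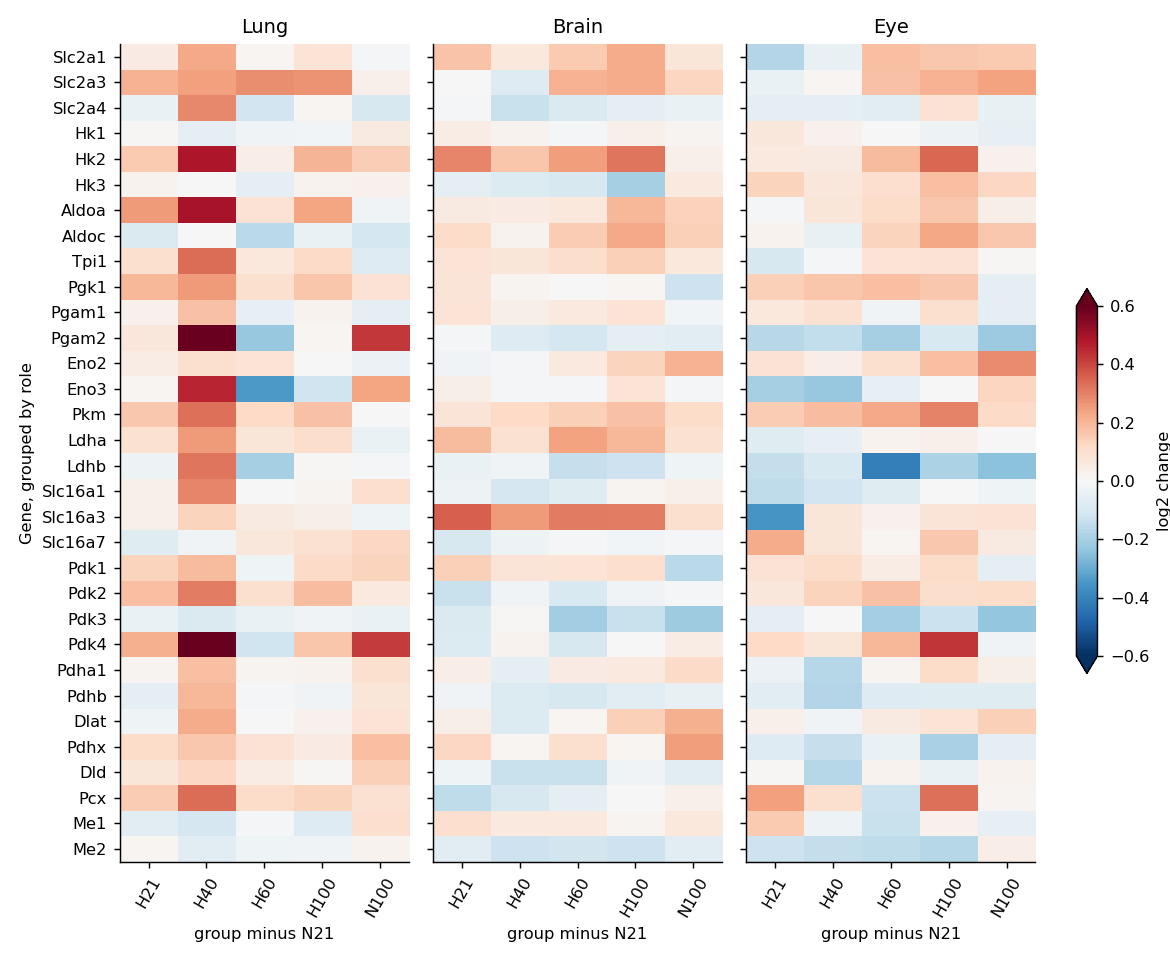
Log2 change of each gene (rows, by role) in H21, H40, H60, H100 and N100, each minus N21 (columns), in lung, brain and eye; red is higher and blue lower than N21. The H40 column of lung is red for most genes, with Hk2 and Aldoa at 0.49 and a highest value of 0.61, and Slc16a3 is red in all hypoxia columns of brain.

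The H40 count changed with single arrays. Aldoa stood at 11.97 and 11.92 in H40 replicates 3 and 6, against 10.56 to 11.24 in the 9 N21 arrays, and Hk2 stood at 8.56 and 8.42 there, against 6.41 to 7.50 in N21. The same arrays had brown fat means of 8.46 and 7.54 and skeletal muscle means of 8.88 and 8.46. Over the group the brown fat mean ran from 5.26 to 8.46 with a median of 5.74 in H40 and from 5.17 to 7.68 with a median of 5.89 in N21, and the muscle mean from 6.09 to 8.88 with a median of 6.38 in H40 and from 5.82 to 9.67 with a median of 6.14 in N21. Without H40 replicates 3, 5 or 6 the count of 13 was 7, 8 or 6. Of all genes 3.58, 4.46 and 3.99% had an unadjusted limma p under 0.05 in these fits. Without N21 replicates 1, 3 or 7 the count was 8 each time, against 4.04, 4.3 and 3.95% of all genes. Leaving out some other arrays raised it, up to 16 without N21 replicate 6 (5.13% of all genes). The member median ran from 0.16 without H40 replicate 3 to 0.27 without H40 replicate 2.

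With the muscle and brown fat means as covariates, 12 members had an unadjusted p under 0.05, against 4.78% of all genes. The member median was 0.17, Aldoa was at 0.40 ± 0.12 and Hk2 at 0.40 ± 0.14. With the neutrophil mean as a covariate the count was 5, against 4.39% of all genes, and the member median 0.16. Positive changes in H40 were found for 8 of 8 neutrophil, 10 of 10 skeletal muscle and 5 of 6 brown fat markers, with medians of 0.35, 0.56 and 0.28 and 0 called. All 6 heart muscle markers (median 0.67) and all 3 red blood cell markers (median 0.33) also had positive changes, with 0 called. The heart muscle mean ran from 7.58 to 11.30 with a median of 8.25 in H40 and from 7.77 to 10.42 with a median of 8.12 in N21. The red blood cell mean ran from 8.53 to 9.90 with a median of 9.46 in H40 and from 8.18 to 9.58 with a median of 8.97 in N21, and the part of either list in the member changes was not tested. In the first record run alone, with 6 H40 and 5 N21 arrays, the count was 17, against 3.92% of all genes.

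**Figure D5:**
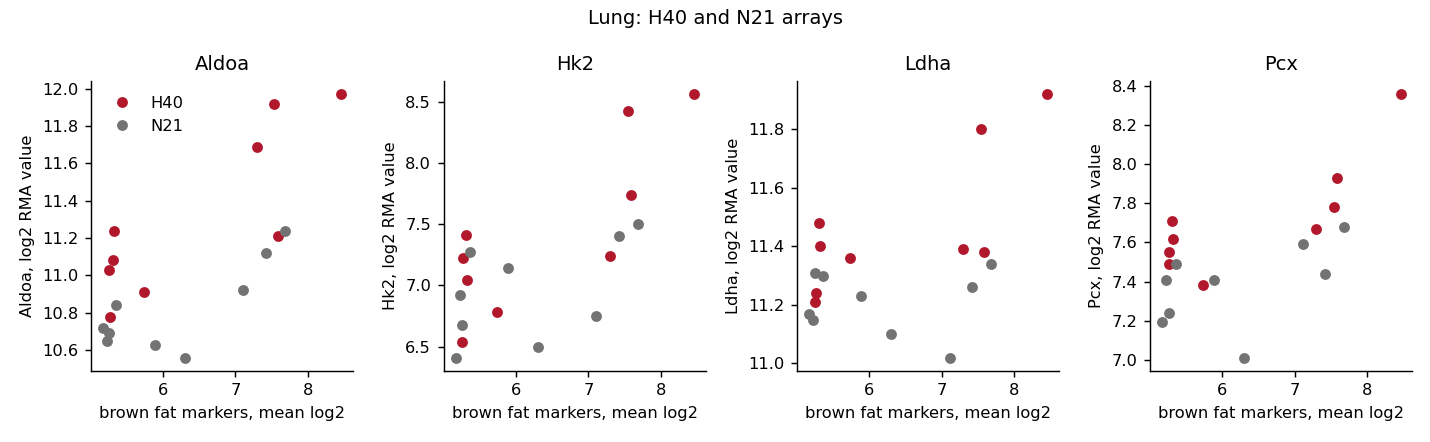
Log2 RMA values of Aldoa, Hk2, Ldha and Pcx (vertical axes) against the mean log2 level of the 6 brown fat markers (horizontal axis) in single lung arrays, 9 of H40 (red) and 9 of N21 (grey). The highest value of each gene is in the same array, H40 replicate 3, which has a brown fat mean of 8.46. The other arrays with brown fat means above 7 are H40 replicates 5, 6 and 7 and N21 replicates 4, 6 and 9.

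The H21 minus N21 and H100 minus N100 comparisons share no array. In brain 24 of the 32 members had the same sign in both (13 positive, 11 negative), against 46.1% of all genes. In lung and eye the count was 17 of 32 (53.1%), against 53.9% and 51.4%. Slc16a3 was at 0.36 ± 0.10 and 0.21 ± 0.10 in these comparisons in brain, Hk2 at 0.29 ± 0.12 and 0.29 ± 0.11, Pdk1 at 0.14 ± 0.07 and 0.26 ± 0.07, and Me2 in eye at -0.13 ± 0.06 and -0.21 ± 0.06. These genes were named for their hypoxia minus normoxia changes, which are taken from the same arrays among others. Their like signs here are therefore no separate support.

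Other genes of the pathway were counted in the same fit. Of 6 phosphofructokinase genes, whose products set the pace of glycolysis, 1 was called in lung, 0 in brain and 1 in eye: Pfkl, the liver-type subunit, rose in lung by 0.30 ± 0.06 (adjusted p = 0.00095), and Pfkp, the platelet-type subunit, rose in eye by 0.52 ± 0.07 (adjusted p = 2.2e-05). Of 21 genes of mitochondrial pyruvate entry and the citrate cycle 1 was called, Suclg2, a succinyl-CoA ligase subunit, which fell by 0.22 on the log2 scale in lung (SE 0.05, adjusted p = 0.0041). The remaining lists of 7 other glycolysis genes, 21 of gluconeogenesis and glycogen, 7 of the pentose phosphate pathway and 10 other glucose transporters held 0 calls in every tissue, with medians between -0.05 and 0.04.

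The known targets of hypoxia-inducible factors outside glycolysis gave a larger count in lung, where 5 of 15 were called higher, against 1.05% of all genes. The list's median there was 0.11. The 5 called were Adm, which encodes the vessel-widening peptide adrenomedullin (0.71 ± 0.10, adjusted p = 1.3e-06), Hif3a, an inhibitory member of the factor family (0.58 ± 0.14, adjusted p = 0.012), and Bnip3, a mitophagy receptor (0.36 ± 0.09, adjusted p = 0.013), with P4ha2 and Ndrg1 at 0.33 and 0.20. In brain and eye 0 of the 15 were called, with medians of 0.08 and 0.03. Positive changes were found for 12, 12 and 10 of the 15 in lung, brain and eye, against 55.8%, 47.8% and 51.8% of all genes.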

How the data were processed

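Total RNA, 10 ng per array per the labels' protocols, was hybridised to 177 arrays. The authors deposited log2 values after RMA, per the submitters' processing notes, for 34760 probe sets (its version is not given in the sources used here). The extraction text names a blood RNA kit, although the design text names solid tissue. The medians of 6.25 in lung, 6.07 in brain and 6.35 in eye point to separate normalization of the tissues. The platform annotation gave 21640 probe sets exactly 1 symbol, 1321 several and 11799 none, and 21553 of the first kind matched the RefSeq gene table. The probe set with the highest mean stood for a gene in a tissue.

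Changes were fitted with limma 3.58.1 in R 4.3.3 (lmFit and eBayes, two-sided, 6 group means per tissue), in a script tested on simulated data. Hypoxia minus normoxia is the mean of the 4 hypoxia group means minus that of the 2 normoxia group means. Errors after ± are standard errors for changes and SD for levels. Permutation tests were two-sided, over 10 marker relations or the 12 split ones. The array number limits precision. The labels do not say which arrays share an animal, so p-values measure the spread between arrays.

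Named with values are genes called in any comparison and the 3 largest hypoxia changes in each tissue; the rest are given by role. The genes, lists and tests were chosen with earlier results of these data known. The marker covariates, correlations, later-run fits, second probe sets and the lung H40 account were added after seeing the data.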

Additional observations from a re-analysis of the deposited data

Results flagged for a closer look

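Among 44 groups of 4 to 10 arrays in which the named genes were examined, 6 held an array far from the rest by Dixon's test, which flags about 1 group in 20 by chance. Slc2a3 in lung was 6.91 in H21 replicate 1, against 7.42 to 7.88 in the other 8, and 7.76 in N100 replicate 7, against 7.06 to 7.36 in the other 9. Hk2 in brain was 6.07 in H21 replicate 8, against 6.73 to 7.06 in the other 8. In eye, Eno3 was 9.71 in H60 replicate 1 (others 10.55 to 10.76), Me2 was 8.56 in H21 replicate 9 (others 8.12 to 8.33) and Pgk1 was 11.59 in H40 replicate 2 (others 12.05 to 12.51). Without these arrays the adjusted p was lowest for Slc2a3 (0.013 without H21 replicate 1), Me2 (0.014) and Pgk1 (0.065).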

How the results depend on the processing

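Of 120 log2 changes of named genes under other settings, 119 kept their direction and 94 also their side of the threshold. The exception was Eno3 in eye with the muscle mean as a covariate (0.039 against -0.18). Hk1 turned sign with its other probe set in lung (0.058) and eye (-0.088). Of 324 counts of members, 303 were within 1.5 times the value reported. For hypoxia minus normoxia in lung (1 called), array quality weights gave 5 members, while there were 2 with a replicate block or a record-run block, and 0 after renewed quantile normalization, in the first run only, in later runs only, with all arrays or with sex (read from the arrays) as a covariate. Over all genes 331 were called in lung, against 834 with weights, 417 and 504 with these blocks, 333 after quantile normalization, 23 in the first run, 95 with all arrays and 320 with sex. In brain (0 called) it was 3 with weights, 2 after quantile normalization and 1 with the dimmest 40% of genes left out, a replicate block or a run block. The count over all genes in brain was 17, and 41, 24, 19, 18 and 24 under these 5 settings. In eye (1 called) it was 2 with weights and 0 with a replicate block, in the first run only, in later runs only or with all arrays, and over all genes it was 17 in eye, 53 with weights, 19 with the block, 0 in the first run and 8 with all arrays. Weights also gave 3 members for H100 minus N100 in eye and 1 for the lung minus eye difference. Leaving out single arrays gave 0 to 2 members in lung, 0 to 2 in brain and 0 to 1 in eye. The counts over all genes in these fits and in the later runs are not given here. These member counts are therefore not read as results about the members. The lung H40 count of 13 ran from 6 to 16 without single arrays, against 3.58 to 5.96% of all genes. It was 5 with the neutrophil covariate, against 4.39%. The cause of these shifts was not tested.

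Same-numbered arrays had mean residual correlations of 0.157 in lung, 0.111 in brain and 0.078 in eye, against -0.014, -0.007 and -0.006 for other pairs. Only 77 of 139 such pairs in lung, 73 of 134 in brain and 52 of 131 in eye were above 0.1, so the numbers were not taken as pairing. With the replicate block Pkm in lung was at 0.20 (adjusted p = 0.047), Me2 in eye was at -0.15 (adjusted p = 0.075) and Slc16a3 in brain at 0.29 (adjusted p = 0.021). Between the first record run and later runs 12, 14 and 9 members differed in lung, brain and eye (adjusted p under 0.05), as did 11256, 8933 and 7714 of all 19937 genes. Of the members 2 in lung, 4 in brain and 1 in eye were among the dimmest 40% of genes.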
